A study of Homo sapiens with 9 samples.

Results

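The ADAM sheddases and iRhoms analysed here are 9 genes, chosen by name for their known role in releasing EGFR ligands and other membrane proteins from the cell surface. They comprise 7 genes of membrane-anchored metalloproteinases (ADAM8, ADAM9, ADAM10, ADAM12, ADAM15, ADAM17 and ADAM19) and the genes of the 2 iRhoms (RHBDF1 and RHBDF2). All 9 were found by symbol among the 16199 genes listed in at least 1 library. They were measured in HaCaT cells, an immortalized human keratinocyte line. The cells were grown in DMEM with 10% fetal bovine serum and were past confluence and in serum free medium when treated, in all 3 groups. Of the 9 libraries, 3 came from untreated cells, 3 from cells given 10 nM EGF for 24 h and 3 from cells given 1 µM bleogen pB1 for 24 h. Bleogen pB1 is a cystine-rich miniprotein of the cactus Pereskia bleo that acts as an EGFR agonist. The labels do not say whether replicates were separate cultures, so the p-values below measure the spread between these libraries, which may be technical.

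EGFR ligands are made as membrane proteins, and a metalloproteinase must cut them close to the membrane before they can reach a receptor on another cell. ADAM17 is the main sheddase of TGF-α, amphiregulin, HB-EGF and epiregulin, and ADAM10 that of betacellulin and of EGF itself. The iRhoms are catalytically dead relatives of the rhomboid proteases that carry immature ADAM17 out of the endoplasmic reticulum and stay bound to it at the cell surface. In the epidermis this machinery feeds autocrine EGFR signalling, and variants of RHBDF2 cause tylosis with oesophageal cancer, a thickening of the skin of palms and soles.

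EGF raised ADAM8 and ADAM19 and lowered ADAM10 and RHBDF1, whereas no gene of the family passed the test under bleogen pB1. ADAM8 was 5.70-fold higher in EGF-treated than in untreated cells (95% confidence interval 5.07 to 6.41, n = 3 libraries per group) and ADAM19 was 6.94-fold higher (5.64 to 8.53). ADAM10 stood at 0.697 of its untreated level (0.64 to 0.759) and RHBDF1 at 0.641 (0.534 to 0.768). ADAM9, ADAM15, ADAM17 and RHBDF2 stayed within the fold-change limit. A gene was called when its adjusted p was at most 0.05 and its log2 fold change at least 0.5 in size, in edgeR's quasi-likelihood test on the expected counts with Benjamini-Hochberg adjustment over 12394 genes. Of the 9 genes, 8 passed the filter on low counts, and 4 of these were called under EGF, 2 higher and 2 lower, where 36.9% of all genes tested were called, 15.1% higher and 21.8% lower. With 8 genes tested, this share of the family (50%) is not far from that of all genes.

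Sequencing gave between 20288417 and 21320994 expected counts per library, so that 3 counts, taken as the smallest level to be told from 0, came to 0.139 to 0.151 CPM, a count scaled for sequencing depth, and only counting error is covered by this floor. Keratinocyte markers (KRT5, KRT14, TP63, SFN and DSP) were all listed in every group, with a summed level of 11300 to 12400 CPM in untreated libraries, 8530 to 8930 CPM with EGF and 11100 to 13000 CPM with bleogen pB1. The 5 fibroblast markers summed to 7.40 to 8.88 CPM in untreated libraries, 1.22 to 1.88 CPM with EGF and 5.59 to 8.53 CPM with bleogen pB1, and the 5 endothelial markers to 3.63 to 5.14, 0.392 to 0.687 and 1.33 to 1.99 CPM. Melanocyte and leukocyte markers summed to at most 2.19 CPM in any library, with TYR at 0 throughout. Whether these marker levels had a part in the results was not tested. The level of each member reported here is one of bulk RNA, in which fewer cells of a kind and less RNA per cell cannot be told apart. Under bleogen pB1 the number of genes called over the whole transcriptome was 183, and it lay between 102 and 436 when single libraries were left out, the highest number being that without bleogen pB1 replicate 1.

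In the GENCODE 44 annotation of GRCh38 all 9 are protein-coding genes. ADAM8 (chr10:133262420-133276868, minus strand) and ADAM12 (chr10:126012381-126388477, minus strand) lie on chromosome 10. ADAM10 (chr15:58588809-58749791, minus strand), ADAM15 (chr1:155050566-155062775, plus strand), ADAM17 (chr2:9488486-9556732, minus strand) and ADAM19 (chr5:157395534-157575775, minus strand) lie on other chromosomes. RHBDF1 (chr16:58059-76355, minus strand) lies near the end of chromosome 16, and RHBDF2 (chr17:76470891-76501790, minus strand) on chromosome 17. The family is thus spread over the genome, apart from the pair on chromosome 10.

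RefSeq promoter windows of GRCh38.p14 were matched for 8 of the 9 genes, not for ADAM9. The 250 bases before the annotated start are shown for the 2 genes that EGF raised and for RHBDF1, the gene with the largest fall. Capitals mark short motifs of factors known to act in growth factor responses, searched on both strands: the AP-1 motif TGANTCA, the CRE motif TGACGTCA, the EGR motif GCGNGGGCG, the ETS motif CCGGAAGT and the SP/KLF motif GGGCGG, the last of which can overlap the EGR motif. The windows are ADAM8 at chr10:133276869-133277118, ADAM19 at chr5:157575776-157576025 and RHBDF1 at chr16:72632-72881, each on the minus strand and written 5′ to 3′.
ADAM8: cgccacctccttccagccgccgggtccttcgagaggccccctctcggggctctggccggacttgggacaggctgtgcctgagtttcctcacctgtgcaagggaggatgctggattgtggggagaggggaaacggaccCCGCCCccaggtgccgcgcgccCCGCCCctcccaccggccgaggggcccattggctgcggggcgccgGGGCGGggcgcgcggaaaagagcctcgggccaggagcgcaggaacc
ADAM19: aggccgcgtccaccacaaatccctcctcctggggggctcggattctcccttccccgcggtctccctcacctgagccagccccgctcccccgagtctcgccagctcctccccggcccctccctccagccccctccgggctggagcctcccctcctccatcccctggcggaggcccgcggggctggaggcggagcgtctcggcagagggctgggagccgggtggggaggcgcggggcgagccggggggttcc
RHBDF1: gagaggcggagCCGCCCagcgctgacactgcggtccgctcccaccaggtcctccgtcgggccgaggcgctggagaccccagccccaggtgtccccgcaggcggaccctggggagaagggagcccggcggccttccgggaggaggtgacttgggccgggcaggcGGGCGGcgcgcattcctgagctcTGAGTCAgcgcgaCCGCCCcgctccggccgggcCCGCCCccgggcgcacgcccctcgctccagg

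The ADAM8 window held 3 SP/KLF motifs and none of the other motifs, at 113 to 108, 91 to 86 and 46 to 41 bases before the start. No motif of the 5 was found in the ADAM19 window. The RHBDF1 window held 1 AP-1 motif at 64 to 58 bases before the start and 4 SP/KLF motifs. It lies inside the longest RHBDF1 gene model of GENCODE, so that it belongs to an internal start. Among all 35116 promoter windows of the same length, 42.6% held the SP/KLF motif, 8.41% the EGR motif, 6.57% the AP-1 motif, 3.42% the ETS motif and 1.65% the CRE motif. The guanine and cytosine content was 73.6% in the ADAM8, 76.4% in the ADAM19, 78% in the RHBDF1 and 68.4% in the ADAM10 window, against a median of 58% over all windows. The ADAM10 window (chr15:58749708-58749957) held 1 SP/KLF motif, and it too overlaps the GENCODE model of its gene. Matches of letters are a description, and binding of a factor was not measured.

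**Figure D1:**
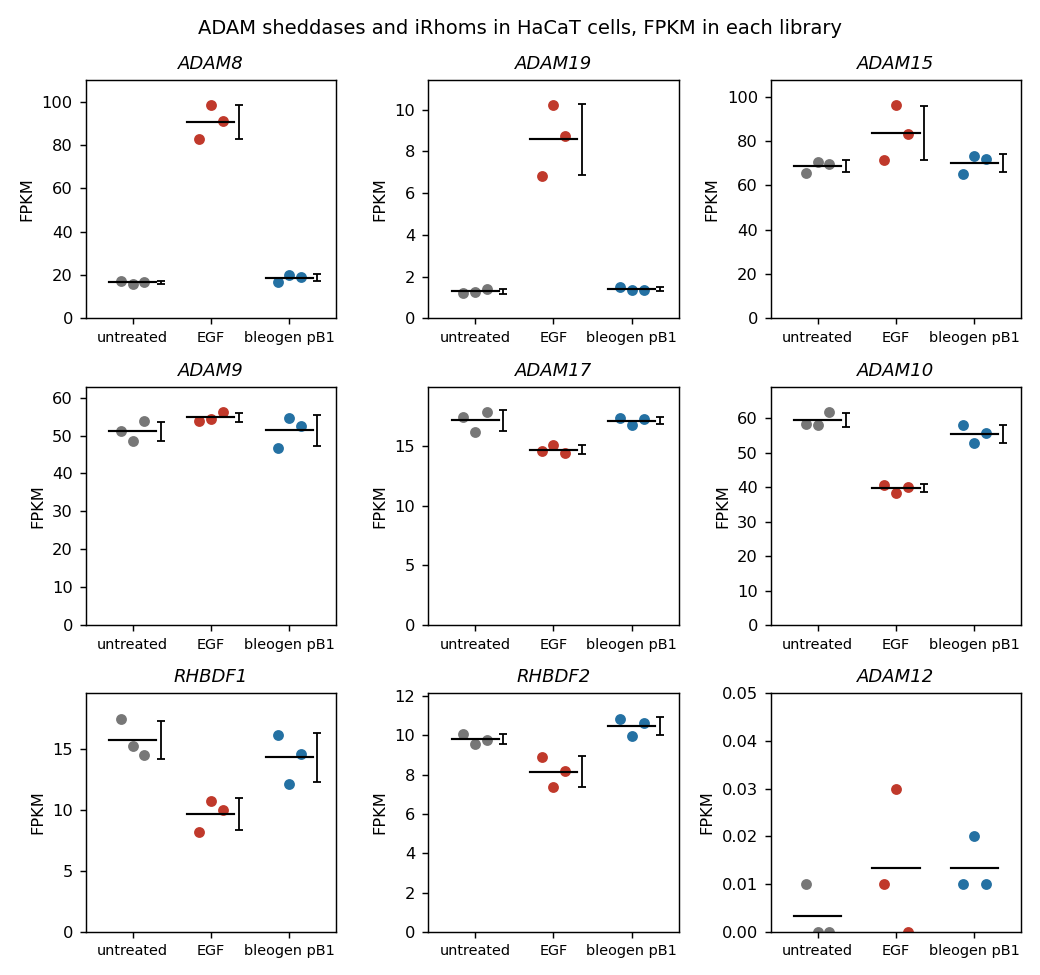
FPKM (vertical axis, from 0, with its own scale in each panel) of the 9 genes in the untreated, EGF and bleogen pB1 groups. Each point is a library, horizontal lines are means of 3 libraries and bars beside them are SD (not drawn for ADAM12, which had at most 4 counts in a library). The EGF points of ADAM8 lie between 82.56 and 98.34 and those of ADAM19 between 6.80 and 10.21, above every other library.

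ADAM8, a metalloproteinase that activates itself by cutting off its own prodomain and is best known from leukocytes and invasive tumours, was raised by EGF in every library. Its FPKM, a level scaled for gene length and depth, was 17.02, 15.79 and 16.93 in the untreated libraries. In the EGF libraries it was 82.56, 98.34 and 91.21. Bleogen pB1 libraries had 16.92, 20.10 and 18.89. The lowest EGF library was thus far above the highest of the other 6, and the bleogen pB1 libraries overlapped the untreated ones. The log2 fold change of EGF against untreated was 2.51 ± 0.08 (SE, adjusted p = 1.5e-10, edgeR). For bleogen pB1 it was 0.15 ± 0.08 (95% confidence interval -0.02 to 0.32, adjusted p = 0.28, edgeR).

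ADAM19, also called meltrin β and known as a sheddase of neuregulins, was scarce in untreated cells and had the largest fold change of the family under EGF. The untreated libraries held 161, 163 and 190 expected counts of it, or 1.21, 1.24 and 1.42 FPKM. The EGF libraries held 917, 1356 and 1213 counts, or 6.80, 10.21 and 8.74 FPKM. The bleogen pB1 libraries held 200, 184 and 180 counts, or 1.5, 1.35 and 1.33 FPKM. EGF replicate 1 was the lowest of the EGF libraries for both ADAM8 and ADAM19, and replicate 2 the highest for both. On the log2 scale the EGF change of ADAM19 was 2.79 ± 0.14 (SE, adjusted p = 5.5e-09, edgeR), with values of 2.66 to 2.94 when single libraries were left out. The bleogen pB1 change was 0.09, with an interval of -0.23 to 0.42. The confidence intervals of the ADAM19 and ADAM8 fold changes overlapped, whereas the level of ADAM19 under EGF stayed far below that of ADAM8.

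ADAM10, the sheddase of Notch receptors, E-cadherin and betacellulin, fell under EGF. It stood at 58.46, 58.02 and 61.81 FPKM in the untreated libraries and at 40.72, 38.32 and 40.15 FPKM in the EGF libraries, with no overlap. The log2 fold change was -0.52 ± 0.06 (SE, adjusted p = 5.2e-06, edgeR). This value lies close to the limit of 0.5, and the call was lost without untreated replicate 3 (-0.50) and without EGF replicate 2 (-0.48), although the direction held in both. Under bleogen pB1 ADAM10 had 57.97, 52.84 and 55.63 FPKM. The bleogen pB1 libraries lay between the other groups, the highest of them just under the lowest untreated library. The log2 fold change of bleogen pB1 was -0.12 with an interval of -0.24 to 0.01 (adjusted p = 0.25, edgeR), which holds no fall of the size seen with EGF.

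ADAM17, the TNF-converting enzyme and the sheddase that depends on iRhoms, moved little. Untreated libraries had 17.46, 16.18 and 17.85 FPKM of ADAM17. EGF libraries had 14.59, 15.11 and 14.42 FPKM, all below the lowest untreated value. The log2 fold change of -0.16 ± 0.06 (adjusted p = 0.026, edgeR) passed the p limit but not the fold-change limit, and its 95% confidence interval of -0.29 to -0.04 excludes a change of 0.5 in either direction. Bleogen pB1 libraries had 17.32, 16.78 and 17.29 FPKM, within the untreated range. ADAM17 was the only gene of the family with expected counts that were not whole, at 1311.94, 1558.46 and 1551.46 in 1 library of each group, as happens where reads are divided between genes. This was noticed after the values were seen.

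ADAM15, a disintegrin with an integrin-binding RGD motif that can also shed membrane proteins, was the most abundant of the family in untreated cells. Its FPKM was 65.48, 70.59 and 69.60 in untreated libraries. Under EGF it was 71.63, 96.14 and 83.17, with the largest SD in FPKM of the family (12.3). Under bleogen pB1 it was 65.30, 73.05 and 71.68. EGF replicate 1 was close to the untreated libraries and EGF replicate 2 well above them. The log2 fold change of ADAM15 under EGF was 0.35 ± 0.09 (interval 0.16 to 0.54, adjusted p = 0.0036, edgeR), below the fold-change limit. Under bleogen pB1 the change was 0.01, with an interval of -0.18 to 0.20.

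ADAM9, a widely expressed sheddase that can also act on EGFR ligands, was next to ADAM10 in level in untreated cells. It had 51.06, 48.68 and 53.70 FPKM in the untreated, 53.79, 54.47 and 56.18 in the EGF and 46.82, 54.71 and 52.62 in the bleogen pB1 libraries. The EGF libraries were above the untreated ones by a narrow margin, with 53.79 against 53.70 FPKM at the point where they were closest. The EGF change of 0.16 ± 0.06 on the log2 scale (adjusted p = 0.037, edgeR) was below the fold-change limit, and its adjusted p was 0.41 with upper-quartile scaling. For bleogen pB1 the change was -0.01 with an interval of -0.15 to 0.13.

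ADAM12, another sheddase linked to HB-EGF, was at the limit of detection and was not tested. Its expected counts were 1, 0 and 0 in untreated, 1, 3 and 0 in EGF and 1, 4 and 1 in bleogen pB1 libraries. With at most 4 counts in a library, no difference of ADAM12 between groups was detectable at this depth.

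RHBDF1, the gene of iRhom1, fell under EGF in all 3 libraries. It had 17.51, 15.25 and 14.51 FPKM in untreated and 8.19, 10.76 and 10.05 FPKM in EGF libraries. The highest EGF library was below the lowest untreated one. The log2 fold change was -0.64 ± 0.12 (SE, adjusted p = 0.00044, edgeR), and it lay between -0.72 and -0.54 when single libraries were left out. Under bleogen pB1 RHBDF1 had 16.21, 12.17 and 14.65 FPKM, a range that overlapped the untreated one. Its bleogen pB1 change of -0.15 had an interval of -0.41 to 0.10 (adjusted p = 0.47, edgeR).

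RHBDF2, the gene of iRhom2, which serves ADAM17 in immune cells and in the epidermis, had a smaller log2 fold change than RHBDF1 under EGF. Untreated libraries had 10.08, 9.58 and 9.76 FPKM and EGF libraries had 8.91, 7.36 and 8.20 FPKM. The EGF values were all lower, and the log2 fold change was -0.20 ± 0.08 (adjusted p = 0.043, edgeR), below the fold-change limit. With DESeq2 the adjusted p of this change was 0.079. Under bleogen pB1 RHBDF2 had 10.84, 9.97 and 10.65 FPKM, with a log2 fold change of 0.08 and an interval of -0.10 to 0.25.

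The summed FPKM of RHBDF1 and RHBDF2 went from 25.6 ± 1.78 in untreated libraries to 17.8 ± 0.63 with EGF and 24.8 ± 2.49 with bleogen pB1 (SD, n = 3 each). In an exact permutation test of 3 against 3 libraries, two-sided, the smallest p possible is 0.1, and the EGF libraries reached it (p = 0.1). The ratio of RHBDF2 to RHBDF1 was 0.576, 0.628 and 0.673 in untreated and 1.09, 0.684 and 0.816 in EGF libraries. Here EGF replicate 1 stood well above the others. The log2 difference of the ratio was 0.44 (exact permutation p = 0.1), and it was between 0.26 and 0.59 when single libraries were left out, the lowest being that without EGF replicate 1. In bleogen pB1 libraries the ratio was 0.669, 0.819 and 0.727, a log2 difference of 0.24 from untreated (exact permutation p = 0.2). The test of 3 against 3 cannot pass 0.05 for any of these ratios.

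ADAM17 and ADAM10, the 2 main sheddases of EGFR ligands, were also compared within each library. The ratio of ADAM17 to ADAM10 in FPKM was 0.299, 0.279 and 0.289 in untreated libraries. In EGF libraries it was 0.358, 0.394 and 0.359, a log2 difference of 0.36 (exact permutation p = 0.1). In bleogen pB1 libraries it was 0.299, 0.318 and 0.311, a log2 difference of 0.10 (exact permutation p = 0.1). The lowest bleogen pB1 ratio equals the highest untreated one at the digits given, so this p rests on a difference beyond those digits. ADAM10 remained the more abundant transcript of the 2 in every library.

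The order of the mean levels differed between EGF-treated cells and the other groups. In untreated cells the mean FPKM ran from ADAM15 (68.56) through ADAM10 (59.43) and ADAM9 (51.15) to ADAM17 (17.16), ADAM8 (16.58), RHBDF1 (15.76), RHBDF2 (9.807) and ADAM19 (1.29). The ranges of ADAM17, ADAM8 and RHBDF1 overlapped from neighbour to neighbour, so their order was not resolved, and the other neighbours did not overlap. In EGF-treated cells ADAM8 (90.7) and ADAM15 (83.65) were highest with overlapping ranges, followed by ADAM9 (54.81), ADAM10 (39.73) and ADAM17 (14.71). RHBDF1 (9.667), ADAM19 (8.583) and RHBDF2 (8.157) followed with overlapping ranges. In bleogen pB1-treated cells the order was ADAM15 (70.01), ADAM10 (55.48), ADAM9 (51.38), ADAM8 (18.64), ADAM17 (17.13), RHBDF1 (14.34), RHBDF2 (10.49) and ADAM19 (1.393), with overlap of ADAM10 and ADAM9 and of ADAM8 and ADAM17. ADAM12 was lowest in each group.

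**Figure D2:**
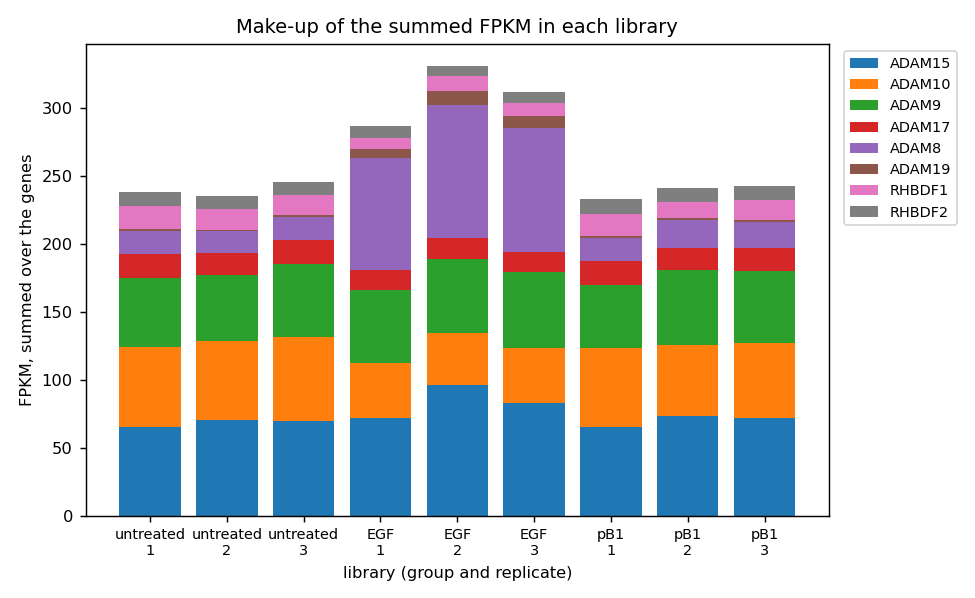
FPKM of 8 of the genes (ADAM12 is left out) stacked for each of the 9 libraries, with the summed FPKM on the vertical axis from 0 and pB1 standing for bleogen pB1. The ADAM8 segment, 15.79 to 20.10 FPKM in the untreated and bleogen pB1 libraries, is 82.56 to 98.34 FPKM in the EGF libraries.

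ADAM8 accounted for 8.08, 7.5 and 7.65% of the summed FPKM of the 7 ADAM genes in untreated libraries. In EGF libraries it accounted for 30.6, 31.5 and 31.0%, and in bleogen pB1 libraries for 8.22, 9.18 and 8.69%. The EGF shares were close to each other, unlike the ADAM8 levels themselves. The summed FPKM of the 7 ADAM genes was 214 ± 6.18 in untreated, 292 ± 21.3 in EGF and 214 ± 7.14 in bleogen pB1 libraries (SD, n = 3 each; exact permutation p = 0.1 for EGF and 1 for bleogen pB1, two-sided). In the stacked plot of FPKM the ADAM8 segment is the one that differs most between EGF and the other libraries.

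Across the family, all 8 genes tested had an adjusted p of at most 0.05 under EGF, where 66.1% of all genes did. This count was 6 to 8 with another tool, scaling or filter and 5 to 8 when single libraries were left out, 5 being the number without untreated replicate 1 and also without EGF replicate 3. The CPM of the EGF and untreated libraries did not overlap for 8 of 8 genes, as for 70.4% of all genes. The median log2 fold change of the 8 was 0.00, against -0.01 over all genes.

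No gene of the family was called under bleogen pB1 (0 of 8 in edgeR), where 1.48% of all genes were. At an unadjusted p of at most 0.05 the count was also 0 of 8, where 22.2% of all genes passed. By adjusted p alone it was 0 of 8 in edgeR, DESeq2 and limma on log2 FPKM, where 4.11% of all genes passed in edgeR. ADAM10 was the 1 gene of 8 whose bleogen pB1 and untreated CPM did not overlap, as did those of 29.1% of all genes. The log2 fold changes lay between -0.15 for RHBDF1 and 0.15 for ADAM8. Every 95% confidence interval lay inside -0.5 to 0.5, with the widest for ADAM19 (-0.23 to 0.42) and RHBDF1 (-0.41 to 0.10).

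**Figure D3:**
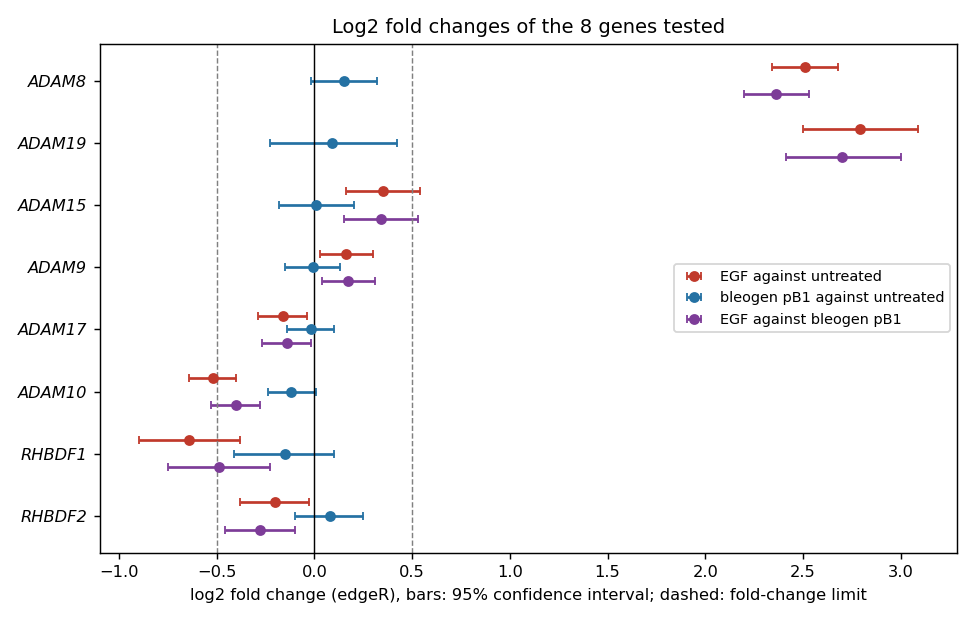
Log2 fold changes (horizontal axis, edgeR) of the 8 genes tested in the 3 comparisons, with 95% confidence intervals as bars and the fold-change limit of 0.5 as dashed lines. ADAM8 and ADAM19 lie above 2 in both comparisons that involve EGF, and no interval of bleogen pB1 against untreated reaches a dashed line.

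EGF and bleogen pB1 were also compared directly, at doses that differ between the agents (10 nM and 1 µM). ADAM8 was 5.15-fold higher with EGF (log2 fold change 2.36 ± 0.08, adjusted p = 2.3e-10, edgeR) and ADAM19 was 6.50-fold higher (2.70 ± 0.14, adjusted p = 1e-08, edgeR). These were the 2 of 8 genes called, where 28.8% of all genes were (10.8% higher with EGF). RHBDF1 was lower with EGF by a log2 difference of -0.49 ± 0.12 (adjusted p = 0.004, edgeR), just short of the limit, and it was called with upper-quartile scaling (-0.58) and without scaling factors (-0.56). ADAM10 differed by -0.40 (interval -0.53 to -0.28) and RHBDF2 by -0.28 (-0.46 to -0.10). ADAM15 differed by 0.34 (0.15 to 0.53) and ADAM9 by 0.17 (0.04 to 0.31). The smallest difference was that of ADAM17, at -0.14 (-0.27 to -0.02, adjusted p = 0.052, edgeR). By adjusted p alone 7 of 8 genes passed, where 58.2% of all genes did, and the CPM of the groups did not overlap for 8 of 8, as for 62.4% of all genes. The EGF libraries are shared with the comparison against untreated cells, so the comparisons are not independent.

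The length that the files give for a gene in a library is an average over its transcripts and would move with their make-up. It varied between libraries for ADAM8 (3297.49 to 3307.77 bases), ADAM10 (5040.76 to 5048.54), ADAM15 (2881.79 to 2893.88) and RHBDF2 (3492.23 to 3519 bases) among the genes tested. ADAM9, ADAM17, ADAM19 and RHBDF1 had a single transcript listed and a fixed length. None of the 4 lengths differed between EGF and untreated cells in limma with Benjamini-Hochberg adjustment (0 of 4 called, 0 of 4 at an unadjusted p of at most 0.05, lowest adjusted p = 0.43, with 2.72% of 7362 genes called). The same counts of 0 were found for bleogen pB1 against untreated, where 0.0543% of genes were called, and for EGF against bleogen pB1, where 1.36% were. The only tool used for length was limma.

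As a description of patterns, the genes whose log2 CPM over the 9 libraries was most like that of ADAM19 were PRR9 (Pearson r = 0.9979), FAM129B (0.9968) and NOG (0.9968). Since 781 of 12393 genes had an r of at least 0.95 with ADAM19, and all share the same libraries with one group set apart, these values do not set the named genes apart from many others. For ADAM10, the gene of the family with the smallest p under bleogen pB1, they were SYT12 (0.9976), PHKB (0.9970) and MEIS2 (0.9960), with 1199 genes at 0.95 or above.

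Genes around the sheddases were taken as 101 genes in 6 lists: other ADAM genes, relatives of the iRhoms, proteins that mature, carry or inhibit sheddases, EGFR ligands, other shed proteins and γ-secretase. Of these, 81 passed the filter. EGF changed 43 of the 81 (53.1%), 23 higher and 20 lower, where 36.9% of all genes were called, 15.1% higher and 21.8% lower. Bleogen pB1 changed 0 of 81 in edgeR, where 1.48% of all genes were called, and 0 in DESeq2 and limma. At an unadjusted p of at most 0.05 the bleogen pB1 count was 23 of 81, where 22.2% of all genes passed. The number called under bleogen pB1 was 4 without bleogen pB1 replicate 1, a fit in which 436 of all 12526 genes tested were called. The lists had been chosen with results of these data known, so that their counts are a description.

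Proteins that mature, carry or inhibit sheddases moved in both directions under EGF: of 21 tested, 5 rose, 4 fell and 12 were not called, with a median log2 fold change of 0.01. The share called, 42.9%, is close to the 36.9% of all genes. FURIN, the convertase that removes the prodomain of ADAM10 and ADAM17, rose from 29.28, 30.06 and 29.46 FPKM to 47.28, 41.09 and 43.74 FPKM (log2 fold change 0.64 ± 0.06, adjusted p = 2.4e-06, edgeR). PCSK6, a related convertase, rose by 0.66 ± 0.11, whereas PCSK5, another, fell by 1.03 ± 0.11 on the log2 scale (SE). TSPAN15 is a tetraspanin that escorts ADAM10 and steers its choice of substrate. It fell from 29.14, 30.21 and 29.13 FPKM to 15.64, 16.52 and 18.12 FPKM (-0.76 ± 0.08, adjusted p = 3.7e-06, edgeR). Of the other tetraspanins tested, none was called. TSPAN14 differed by 0.33 ± 0.05, TSPAN5 by 0.20, TSPAN17 by -0.17 and TSPAN33 by -0.26, and they were named after their values were seen. SNX9, a sorting nexin that binds ADAM9 and ADAM15, rose by 0.69 ± 0.06. FRMD8, which stabilises the complex of iRhom and ADAM17, differed by -0.34 ± 0.07 and was not called; it was named after its value was seen.

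Among the inhibitors, TIMP1, which blocks ADAM10, rose by 0.71 ± 0.09 under EGF. TIMP3, the main inhibitor of ADAM17, fell by 0.96 ± 0.19 on the log2 scale, from 101, 80 and 78 to 44, 35 and 51 expected counts. TIMP4 had 6 counts in all untreated and 45 in all EGF libraries, a ratio of 7.38 with an exact interval of 3.14 to 21.2 that covers counting error only, not the spread between libraries. RECK, a membrane-bound inhibitor of ADAM10, had 36, 20 and 25 counts in untreated and 17, 15 and 16 in EGF libraries. Its call (-0.72 ± 0.29, adjusted p = 0.042, edgeR) was lost in DESeq2 and without most single libraries. Under bleogen pB1 none of these genes was called, with log2 fold changes of 0.05 for FURIN, -0.01 for TSPAN15 and -0.34 for TIMP3. PCSK6 had a bleogen pB1 value of 0.36 ± 0.11 (adjusted p = 0.09, edgeR) with no overlap between the groups. TIMP4 had 17 counts in all bleogen pB1 libraries against 6 in all untreated ones, a ratio of 2.78 (1.05 to 8.61, counting error only), and its adjusted p was 0.29 in edgeR.

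Substrates were followed through the EGFR ligands and a list of other shed proteins. Of the 6 ligand genes tested, EGF raised TGFA, HBEGF, AREG, EREG and EPGN and lowered BTC. Of all genes tested, 36.9% were called under EGF, 15.1% higher and 21.8% lower. TGFA, a substrate of ADAM17, went from 7.16, 7.49 and 8.29 to 34.24, 33.33 and 35.52 FPKM. BTC, the ADAM10 substrate betacellulin, went from 75, 67 and 46 to 11, 17 and 14 expected counts (log2 fold change -2.12 ± 0.27, adjusted p = 1.9e-05, edgeR). HBEGF rose by 4.87 ± 0.19, AREG by 4.37 ± 0.12, EREG by 3.25 ± 0.24 and EPGN by 0.81 ± 0.23 on the log2 scale. The gene EGF had at most 5 counts in a library and was not tested. Under bleogen pB1 the ligand values ran from -0.64 for BTC to 0.57 for HBEGF with none called, where 1.48% of all genes were. Of the 6, 4 had an unadjusted p of at most 0.05, where 22.2% of all genes did. Without bleogen pB1 replicate 1, 3 ligands were called: HBEGF (0.80), EREG (0.60) and AREG (0.58). In that fit 436 of all 12526 genes tested were called, 100 higher and 336 lower.

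Of 36 other shed proteins tested, 12 rose and 11 fell under EGF (63.9% called, against 36.9% of all genes), with a median log2 fold change of -0.22. AXL, a receptor tyrosine kinase shed by ADAM10 and ADAM17, had the largest rise among genes of at least 50 counts on average (1.57 ± 0.09). IL1R2, below that average, was also called, with no count in untreated and 105, 120 and 136 counts in EGF libraries. None of the 5 γ-secretase genes tested was called under EGF in edgeR, and 1 gene was called in DESeq2 and 1 in limma. By adjusted p alone 2 of the 5 passed in edgeR, where 66.1% of all genes did. Among the 8 relatives of the iRhoms tested, RHBDL2, an active rhomboid protease, fell by 0.86 ± 0.12, RHBDD2 fell by 0.59 ± 0.08, and none rose (25% called, against 36.9% of all genes). Of 5 other ADAM genes tested, ADAM22, which lacks protease activity, fell by 1.73 ± 0.24. ADAM28 (-0.60 ± 0.21) and ADAM21 (2.49 ± 0.91) were also called, the latter from 3, 23 and 14 counts in EGF libraries against 2, 1 and 4 in untreated ones, which overlap. The number of other ADAM genes called, 3 of 5, was 2 in DESeq2, 0 to 1 in limma on log2 FPKM, and 1 without untreated replicate 2 or without EGF replicate 3. IL1R2, RHBDD2, ADAM21 and ADAM28 were named after their values were seen.

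**Figure D4:**
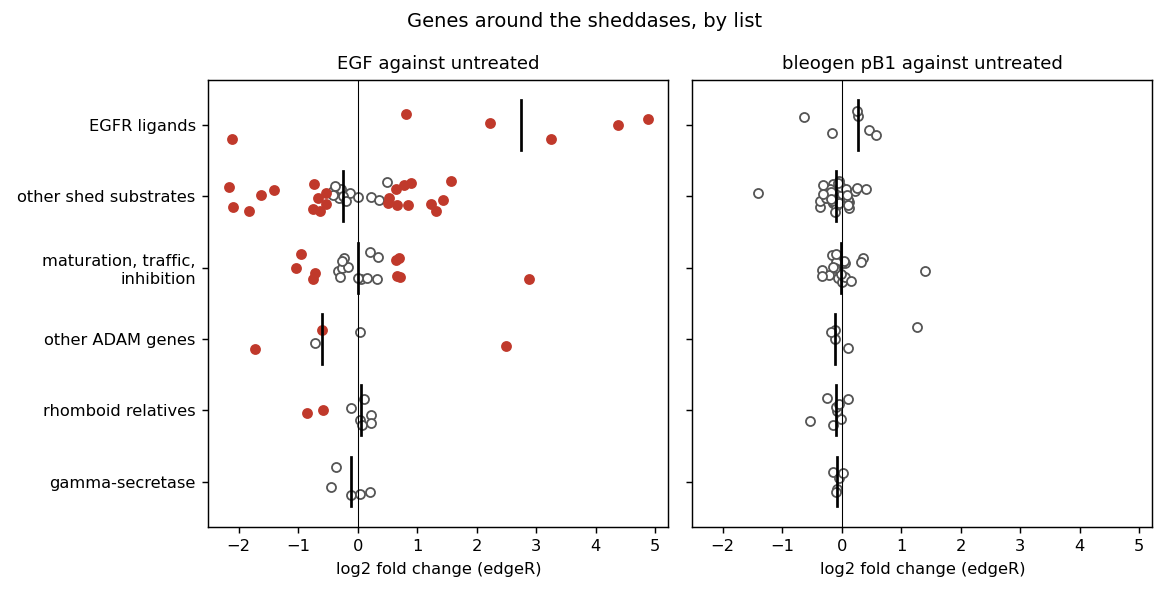
Log2 fold changes (horizontal axis, edgeR) of 80 genes around the sheddases, by list, for EGF (left) and bleogen pB1 (right) against untreated cells. Filled points are called genes, open points are not called, and vertical bars are medians; 1 further gene tested, IL1R2, had no count in any untreated library and is left out. Called genes lie on both sides of 0 under EGF and there are none under bleogen pB1.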

How the data were processed

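RNA of HaCaT cells in 3 groups of 3 libraries was sequenced. Samples were assigned by their deposited titles. RNA extraction is given as RNeasy in the labels and PureLink in the study's methods, and the sequencer as DNBSEQ and BGISEQ, respectively. Libraries marked strand, but whether the counting used it is not given in the sources used here. Per the study's methods the reads were mapped to GRCh38.p12 in an online system, and the counting program is not given in the sources used here.

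The authors deposited an expected count for each gene and library, an estimate with no scaling for depth. The FPKM deposited by the authors are these counts scaled for gene length and depth. The authors also deposited a length per gene, averaged over its transcripts within the library. A gene with no entry in a library was counted as 0.

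Expected counts were rounded and tested with edgeR 4.0.16 (R 4.3.3): filterByExpr (12394 genes kept), TMM factors, glmQLFit and glmQLFTest on all 9 libraries (6 residual degrees of freedom), with Benjamini-Hochberg adjustment. Calls needed an adjusted p of at most 0.05 and a log2 fold change of at least 0.5 in size, the limits of the study, which used DESeq2. For the SE, the size of the log2 fold change was divided by the root of the F statistic. CPM used TMM-scaled library sizes, except for the summed marker levels, which used the total expected count of each library without TMM factors. Log2 gene length was tested with limma 3.58.1 in 7362 genes. Ratios of FPKM were compared by exact permutation tests in scipy 1.17.1. The fits were also run on simulated data, in which all genes had the same spread. That setting is simpler than these data, and its outcome is not given here.

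Named genes were the 9 members; the called genes of each list with the largest rise and fall (at least 50 counts on average); all EGFR ligands; every called gene for maturation, traffic and inhibition; and the 3 genes most alike to 1 member per comparison with untreated cells. Of the genes this rule names, 1 is not reported here. The members and lists were chosen with earlier results of these data known. Alternatives covered the tool (DESeq2 1.42.0, or limma on log2 FPKM with a pseudocount of 1 or 0.1, and with or without a minimum FPKM of 1), the libraries in the fit (the 6 compared, or each left out in turn), scaling (RLE, upper-quartile, none), the filter (none, or a minimum of 10 counts in all libraries), the call rule and a block for the replicate number. Promoter windows are from RefSeq (GRCh38.p14) and gene positions from GENCODE 44 (GRCh38), 1-based.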

Additional observations from a re-analysis of the deposited data

How the results depend on the processing

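The number of family genes called under EGF, 4, was 8 by adjusted p alone, 2 at a log2 fold change of at least 1 and 3 to 4 with single libraries left out. Under bleogen pB1 it was 0 in every alternative, also with single libraries left out (0 to 0). For EGF against bleogen pB1 the number, 2, was 7 by adjusted p alone and 2 to 3 with single libraries left out. Of 528 alternative values of single family genes, 507 kept their side of the limits, 4 lost the call, 17 gained one and 0 called values reversed. Among values not called, 27 had the opposite sign. Of the 81 genes around the sheddases tested, 43 were called under EGF. Their number was 19 at a log2 fold change of at least 1 and 38 to 43 with single libraries left out. Under bleogen pB1 their number, 0, was 1 in edgeR on the 6 libraries compared and 0 to 4 with single libraries left out. By adjusted p alone it was 3, where 4.11% of all genes passed. For EGF against bleogen pB1 it was 36 of 81, where 28.8% of all genes were called. By adjusted p alone it was 61, where 58.2% of all genes passed. It was 17 at a log2 fold change of at least 1, for which the number over all genes is not given here. It was 33 to 38 with single libraries left out. No gene length of the family was called in any alternative, and an effective length was not run because the files used give none. The log2 difference of the RHBDF2 to RHBDF1 ratio was 0.26 to 0.59 under EGF and 0.16 to 0.31 under bleogen pB1 with single libraries left out, and that of ADAM17 to ADAM10 was 0.31 to 0.38 and 0.07 to 0.12. Upper-quartile scaling moved the median log2 fold change of all genes under EGF to -0.12, with 1396 genes higher and 3221 lower against 1875 and 2703 with TMM.

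Deviations of same-numbered libraries correlated at 0.0039 to 0.0449 for EGF and untreated and at -0.0304 to 0.207 for bleogen pB1 and untreated. For EGF and bleogen pB1 the values were 0.0269 to 0.0562. Differently numbered libraries correlated at -0.0756 to 0.0408, -0.253 to 0.163 and -0.078 to 0.0505, in the same order. With 3 libraries per group, these values cannot decide whether the replicate numbers mark pairs. With the replicate number as a block, 4, 0 and 2 family genes were called in the 3 comparisons (EGF against untreated, bleogen pB1 against untreated, EGF against bleogen pB1), and 43, 0 and 36 of the genes around them. The block changed no call of a family gene. The ratio differences stayed at 0.44, 0.24, 0.36 and 0.10 under the block, with an exact sign-flip permutation p of 0.25, the smallest that 3 pairs allow.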
